A study of Mus musculus with 18 samples.

Results

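Transcripts of 8 genes of the interferon regulatory factor (IRF) family, Irf1, Irf2, Irf3, Irf4, Irf5, Irf7, Irf8 and Irf9, were measured in AT3 cells, a mouse mammary carcinoma line used as a model of triple-negative breast cancer. The genes were chosen by name, through the Ensembl identifiers of the count table, and are 8 of its 43629 genes. The 18 libraries of QuantSeq 3′ mRNA sequencing form 6 conditions of 3 libraries each. DMSO (vehicle), 250 nM A-241 or 1000 nM A-485 was given 1 h ahead of a culture of 2 h with or without IFNγ (1 ng/mL), so that the exposure lasted 3 h in total. The conditions are termed DMSO, A-241, A-485, IFNγ, A-241+IFNγ and A-485+IFNγ. The doses of the combined conditions are taken from the methods of the study, since the labels give them only for the single treatments. Both compounds inhibit the acetyltransferase activity of the coactivators P300 and CBP, and the design asks whether this alters steady-state and IFNγ-induced transcription. All libraries come from 1 cell line, and the labels call the replicates biological while the methods call them technical, so p-values measure the spread between libraries, which may be technical.

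IFNγ binds a receptor of IFNGR1 and IFNGR2, which signals through the kinases JAK1 and JAK2. A first wave of genes is activated through gamma-activated sites (GAS) in the DNA, among them Irf1, whose product then binds IRF sites in later targets. IRF2 binds the same sites and can oppose IRF1, IRF9 joins STAT2 in the ISGF3 complex, and IRF3 and IRF7 are the factors that drive type I interferon genes after viral sensing. IRF4, IRF5 and IRF8 are known chiefly from blood cells, where IRF8 acts with the partner PU.1.

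The proximal promoters bear on this first wave. Promoter windows of RefSeq (build GRCm38.p6, 250 bases before to 50 after the start site) were found for all 8 genes, with 11 windows in total. GAS was searched as TTCNNNGAA, a pair of IRF half-sites as 2 GAAA runs with any 2 bases between them and the TATA box as TATAAA, each on both strands. Irf1, Irf2 and Irf8 each had 1 window with a GAS match, and the other windows had none. Shown are the 250 bases upstream of the start for these 3 genes, 5′ to 3′ on the strand of the gene (the plus strand in all 3), with every match of the 3 motifs in capitals.
Irf1, chr11:53769764-53770013: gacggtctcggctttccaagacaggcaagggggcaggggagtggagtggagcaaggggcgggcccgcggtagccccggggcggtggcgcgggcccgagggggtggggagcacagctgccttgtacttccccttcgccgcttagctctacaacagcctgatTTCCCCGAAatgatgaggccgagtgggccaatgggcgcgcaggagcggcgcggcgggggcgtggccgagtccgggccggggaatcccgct
Irf8, chr8:120736108-120736357: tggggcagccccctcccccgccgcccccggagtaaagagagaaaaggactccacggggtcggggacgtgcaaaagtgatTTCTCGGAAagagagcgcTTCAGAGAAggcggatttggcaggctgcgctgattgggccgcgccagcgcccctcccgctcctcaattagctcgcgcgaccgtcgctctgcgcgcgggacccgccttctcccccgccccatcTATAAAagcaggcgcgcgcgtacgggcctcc
Irf2, chr8:46739495-46739744: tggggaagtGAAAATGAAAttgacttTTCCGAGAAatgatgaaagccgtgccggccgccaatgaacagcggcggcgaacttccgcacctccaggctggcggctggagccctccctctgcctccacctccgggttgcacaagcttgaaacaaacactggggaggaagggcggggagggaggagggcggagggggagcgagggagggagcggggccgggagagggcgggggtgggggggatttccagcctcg
In Irf1 the capitals are a GAS, TTCCCCGAA, whose first base is at -90 from the start site. In Irf8 they are a GAS at -171 (TTCTCGGAA), another at -153 (TTCAGAGAA) and a TATA match at -31. In Irf2 they are an IRF pair (GAAAATGAAA) and, downstream of it without overlap, a GAS at -224 (TTCCGAGAA). TATA matches were also present in Irf4 (at -26) and Irf7 (at -29). Among all 32851 windows of 300 bases, 8.30% held a GAS, 3.44% an IRF pair and 13.6% a TATA match. Such a match is a run of letters and was not tested for binding.

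Total counts lay between 3417167 and 7856830 per library (median 4880947.5), and 11964 genes passed the filter on low counts. Levels are given as TMM-scaled CPM. At these depths 3 counts, the limit that a count of 0 allows, correspond to between 0.368 and 1.03 CPM, and this limit covers counting error only. In DMSO replicate 3 and IFNγ replicate 2 the RNA Gm42418 took 20.1% and 23.0% of the counts, against 7.11% to 16.2% elsewhere, and these libraries stood apart from their replicates. Their root mean square deviations from the condition means were 0.731 and 0.755 on the log2 scale, against 0.226 to 0.512. Markers of epithelial or mammary carcinoma cells (Krt8, Krt18, Krt14, Krt5, Epcam, Cdh1, Cdh3 and Vim) had summed levels of 1066 to 1974 CPM, with 7 of 8 genes tested. Of 14 blood cell markers 4 were tested, their summed level was 5.67 to 52.9 CPM, and Adgre1, Itgax and Xcr1 had 0 counts throughout. Fewer cells of a type and less RNA per cell cannot be told apart in such bulk samples.

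Of the 8 genes, 6 passed the filter (Irf1, Irf2, Irf3, Irf7, Irf8 and Irf9). Calls were made where the adjusted p was below 0.01 (edgeR quasi-likelihood test, Benjamini-Hochberg over all 11964 genes). With IFNγ alone 2 of the 6, Irf1 and Irf8, were called higher than in DMSO, against 1.3% of all genes called in either direction. Irf8, with 0, 0 and 2 counts in DMSO, passed the filter through the IFNγ-treated libraries, where it was high. The count of 2 in 6 is therefore a description. The median log2 fold change of the 6 genes was 1.20, and that of all genes tested was -0.003.

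**Figure D1:**
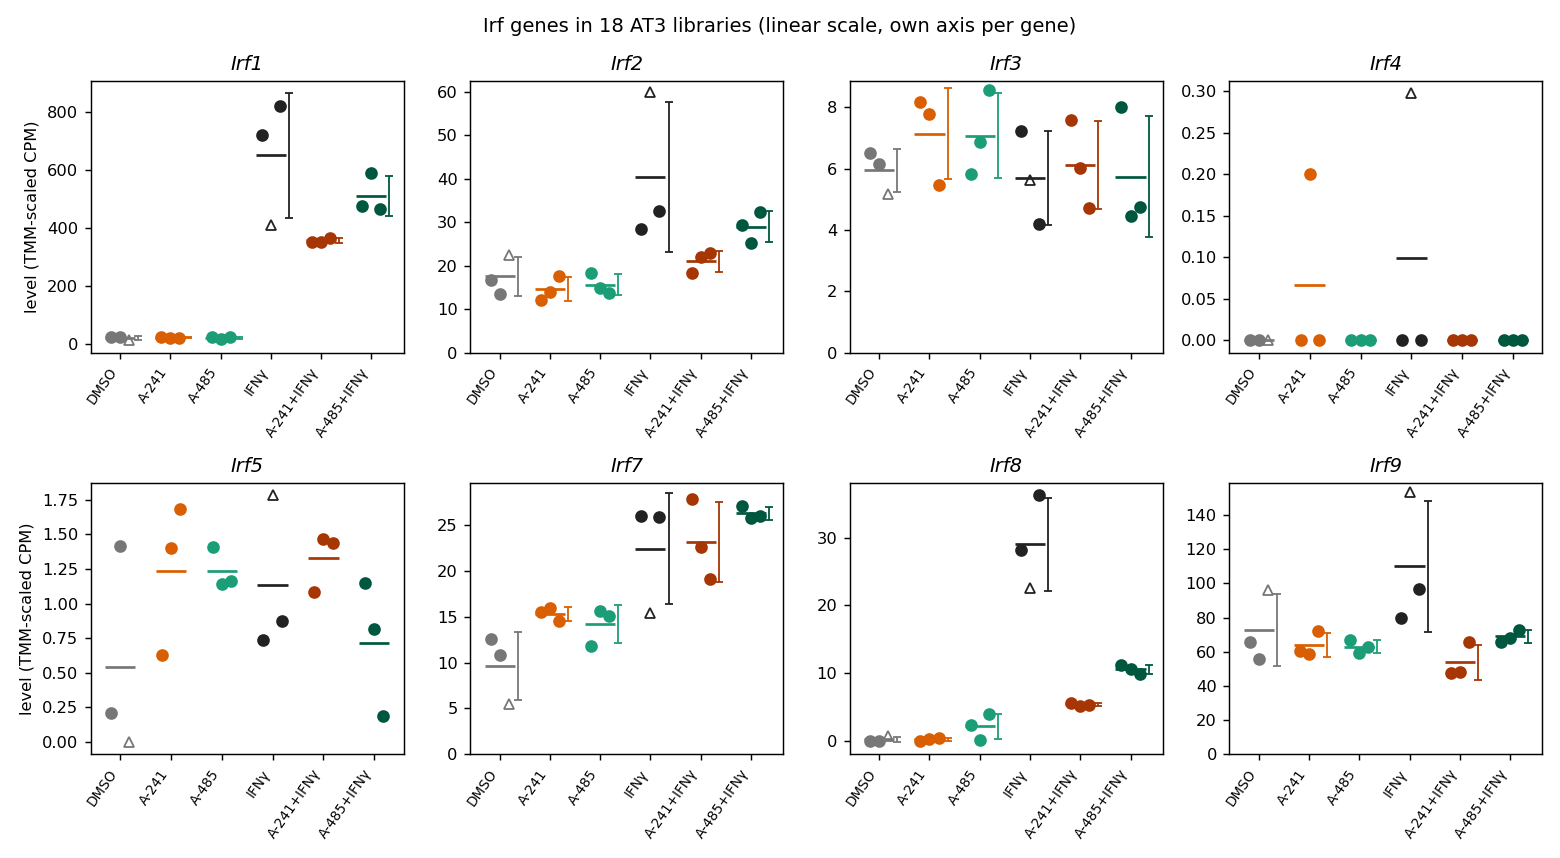
Level of each Irf gene (TMM-scaled CPM, linear, own axis per gene) in the 18 libraries. Points are libraries, bars the mean and whiskers the SD of 3 libraries (no whiskers for Irf4 and Irf5, which were near 0), and open triangles mark DMSO replicate 3 and IFNγ replicate 2. All IFNγ-treated libraries lie above all untreated ones for Irf1 and Irf8.

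Irf1, the activator at the head of the IFNγ transcriptional cascade, was expressed at a low level without IFNγ and rose strongly with it. In DMSO the 3 libraries had 23.3, 23.2 and 11.4 CPM. With IFNγ they had 719.8, 408.1 and 818.6 CPM. The groups were far apart, and the lowest library of each was the Gm42418-rich one. The log2 fold change was 5.05 ± 0.31 (SE, adjusted p = 3.52e-08), and it lay between 4.82 and 5.29 in all alternative fits. The gene lies on chromosome 11 (GRCm38, 53770014 to 53778374, plus strand), and the gene that shares exon bases with it, Gm17334, had no counts in any library.

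Neither inhibitor alone moved Irf1 past the test. Its level was 24.1, 18.2 and 19.97 CPM with A-241 and 21.8, 16.0 and 23.2 CPM with A-485, and both groups overlapped DMSO. The log2 fold change against DMSO was 0.09 with A-241 (95% confidence interval -0.50 to 0.67) and 0.06 with A-485 (-0.53 to 0.64).

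Irf1 still rose with IFNγ in the presence of either inhibitor. In A-241+IFNγ the libraries had 351.9, 350.6 and 364.6 CPM, and the log2 fold change against A-241 was 4.10 ± 0.30 (SE, adjusted p = 1.16e-06, edgeR). In A-485+IFNγ they had 473.0, 587.3 and 463.6 CPM, and the change against A-485 was 4.64 ± 0.31 (adjusted p = 1.09e-07, edgeR). All A-241+IFNγ libraries lay below all IFNγ libraries, whereas A-485+IFNγ overlapped IFNγ. Against IFNγ alone the log2 fold change was -0.87 with A-241 (95% confidence interval -1.42 to -0.31, adjusted p = 0.0547, edgeR) and -0.35 with A-485 (-0.91 to 0.20, adjusted p = 0.549, edgeR). The first passed the test in fits without IFNγ replicate 2 (-1.11, adjusted p = 0.00514, edgeR) or without both Gm42418-rich libraries (-1.12, adjusted p = 1.46e-05, edgeR). These were the only 2 of 13 alternative fits that called it, and without IFNγ replicate 3 its adjusted p was 0.185 (edgeR). On the linear scale the mean increase of 629.5 CPM with IFNγ became 335 CPM with A-241, or 53.2%, and 487.6 CPM with A-485, or 77.5%. With 1 library left out these shares ranged from 44.7% to 61.5% and from 65.0% to 89.5%.

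Irf8, a lineage factor of myeloid and B cells, was almost silent in untreated cells and rose with IFNγ. DMSO libraries had 0, 0 and 2 counts, and IFNγ libraries had 230, 76 and 208 counts, or 28.2, 22.6 and 36.3 CPM. The summed counts differed by 209-fold, with a counting interval of 57.5 to 1727 that covers counting error only. The adjusted p of the test across libraries was 1.33e-05 (edgeR). The call was lost when only the groups compared were fitted (adjusted p = 0.0175, edgeR). The summed level of the 14 blood cell markers was 9.20, 52.9 and 9.25 CPM in these IFNγ libraries and 8.83, 5.67 and 27.9 CPM in DMSO, highest in the Gm42418-rich library of each. In the IFNγ libraries Lyz2 had 30, 76 and 17 counts, Fcgr3 21, 54 and 20, Itgam 16, 22 and 11, and Ptprc, which encodes the pan-leukocyte protein CD45, 0, 9 and 3. None of these 4 markers, the ones tested, was called with IFNγ, and Irf8 was lowest in the IFNγ library where their counts were highest. Their part in the Irf8 counts was not tested. Spi1, which encodes PU.1, had at most 5 counts in any library. The gene lies on chromosome 8 (120736358 to 120756694, plus strand) and shares no exon bases with another annotated gene.

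Under IFNγ the level of Irf8 was lower in every library with an inhibitor, and the decrease with A-241 was called. A-241+IFNγ libraries had 26, 32 and 26 counts (5.64, 5.21 and 5.35 CPM), and A-485+IFNγ libraries had 59, 52 and 52 counts (11.3, 10.6 and 9.86 CPM). The 3 IFNγ-treated conditions did not overlap, with IFNγ highest and A-241+IFNγ lowest. Against IFNγ alone, Irf8 fell with A-241 (log2 fold change -2.43 ± 0.46 SE, adjusted p = 0.00318, edgeR), the only call among the 6 genes in that comparison, where 4.09% of all genes were called. The median log2 fold change of the 6 genes was -0.90, against -0.02 over all genes. The call was lost without IFNγ replicate 3 (adjusted p = 0.0161, edgeR) and without any 1 of the 3 A-241+IFNγ libraries (0.0192, 0.0213 and 0.0209 without replicates 1, 2 and 3), while the change stayed between -2.57 and -2.24. With A-485 the log2 fold change was -1.46 ± 0.44 (SE, adjusted p = 0.112, edgeR), and it was called only without both Gm42418-rich libraries (-1.61, adjusted p = 0.00407, edgeR). None of the 6 genes was called there by edgeR, DESeq2 or limma-voom, and edgeR called 0.552% of all genes. In the edgeR test 2 of the 6 had an unadjusted p under 0.05, beside 1760 of all 11964 genes. Of the mean increase of 28.8 CPM with IFNγ, 18.03% remained with A-241 and 29.3% with A-485.

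Relative to the matching inhibitor alone, Irf1 was the 1 gene of the 6 called with each inhibitor, beside 0.192% of all genes for A-241+IFNγ against A-241 and 0.802% for A-485+IFNγ against A-485. The A-241 libraries without IFNγ held 0, 1 and 2 counts of Irf8, and the summed counts were 26.1-fold higher in A-241+IFNγ. The counting interval was 8.61 to 128.9, which covers counting error only, and the test across libraries gave an adjusted p of 0.0153 (edgeR). Against A-485 the log2 fold change of Irf8 was 2.33 ± 0.53 (SE, adjusted p = 0.0389, edgeR). Both of these Irf8 differences were called by DESeq2 and without the filter on low counts (adjusted p = 0.000158 and 9.70e-05 by DESeq2). Each was called in 4 of 13 alternative fits, but in 0 of the 6 with 1 library left out. There the adjusted p ranged from 0.0483 to 0.147 against A-241 and from 0.0219 to 0.181 against A-485 (edgeR). Irf2 (0.89, adjusted p = 0.206, edgeR) and Irf7 (0.89, adjusted p = 0.139, edgeR) were higher in every A-485+IFNγ library than in every A-485 library. They were called with only the groups compared or without both Gm42418-rich libraries, but not with 1 library left out.

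With A-485 alone, Irf8 was uneven among libraries, with 13, 1 and 17 counts. The summed counts were 14.2-fold those of DMSO (counting interval 3.62 to 122.8, which covers counting error only), and the test across libraries gave an adjusted p of 0.0864 (edgeR). Replicates 1 and 3 carried the counts and replicate 2 was at the level of DMSO. The blood cell markers did not all move together in these libraries. Ptprc followed the order of Irf8, with 37, 1 and 73 counts, against 2 to 6 in DMSO and 2 to 12 in A-241. Cd3e, which was too low to test, followed it too, with 4, 0 and 6 counts, against at most 1 in any library of the other conditions. Lyz2, with 178, 48 and 72 counts, was also lowest in replicate 2 but highest in replicate 1. Itgam had 5, 19 and 3 counts, the opposite order to Irf8, and Fcgr3 had 30, 18 and 11. The summed level of all 14 blood cell markers was 46.1, 17.0 and 39.9 CPM in the A-485 libraries, 5.67 to 27.9 CPM in DMSO and 12.6 to 15.8 CPM in A-241. The comparisons with Ptprc and Cd3e were chosen after their values were seen, and the part of these markers in the Irf8 counts was not tested. In A-485+IFNγ, where Irf8 counts were nearly even, Ptprc had 21, 2 and 7 counts, Lyz2 76, 30 and 4, Fcgr3 20, 18 and 9, and Itgam 3, 3 and 4.

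**Figure D2:**
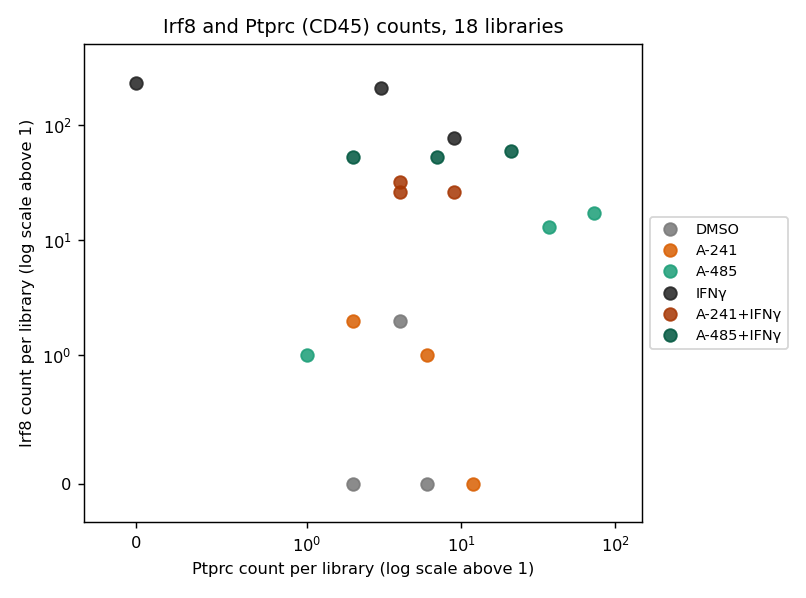
Counts of Irf8 against counts of Ptprc (CD45) in each of the 18 libraries, both on axes that are logarithmic above 1. Among libraries without IFNγ, the 2 with over 10 Irf8 counts (A-485 replicates 1 and 3) have the highest Ptprc counts, 37 and 73, whereas the IFNγ-treated libraries have 0 to 21 Ptprc counts. Of the other blood cell markers, Lyz2 (178 and 72 counts) and Cd3e (4 and 6) were also highest in these 2 libraries among those without IFNγ. Itgam (5 and 3 counts, against 19 in A-485 replicate 2) and Fcgr3 (30 and 11, against 18) did not follow this order.

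Irf2, the repressor that competes with IRF1, was moderately higher in every IFNγ library. DMSO libraries had 16.6, 13.5 and 22.4 CPM and IFNγ libraries 28.3, 60.0 and 32.6 CPM. The groups did not overlap, and the highest library of each was the Gm42418-rich one, opposite to Irf1. The log2 fold change was 1.21 ± 0.27 (SE) and missed the threshold (adjusted p = 0.0228, edgeR), although DESeq2 called it (adjusted p = 0.00187), as did edgeR without both of those libraries (1.01, adjusted p = 0.00532) or without IFNγ replicate 1 (1.41, adjusted p = 0.00817). A-241+IFNγ had 18.2, 22.0 and 22.8 CPM, all below the IFNγ libraries, with a log2 fold change of -0.93 ± 0.26 (adjusted p = 0.0383, edgeR). A-485+IFNγ had 29.4, 25.2 and 32.2 CPM, which overlapped IFNγ (-0.46, 95% confidence interval -1.01 to 0.08). Without IFNγ the changes were -0.24 with A-241 and -0.15 with A-485, with overlapping libraries.

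Irf9, the DNA-binding subunit of ISGF3, showed no called response to IFNγ, and its lowest mean was in A-241+IFNγ. DMSO libraries had 65.8, 55.6 and 96.2 CPM and IFNγ libraries 79.8, 153.4 and 96.5 CPM, and these groups overlapped. The log2 fold change was 0.60 ± 0.23 (SE, adjusted p = 0.403, edgeR). Again the Gm42418-rich libraries were the highest of each group. A-241+IFNγ had 47.8, 48.2 and 65.6 CPM, all below the IFNγ libraries, and missed the threshold closely (-1.03 ± 0.24, adjusted p = 0.01125, edgeR). DESeq2 called this difference (adjusted p = 0.000804), as did edgeR without both Gm42418-rich libraries, where the change was -0.72 (adjusted p = 0.00267), or without IFNγ replicate 1 (-1.21, adjusted p = 0.0051). These were 3 of 13 alternative fits, and without A-241+IFNγ replicate 1 the adjusted p was 0.0636 (edgeR). A-485+IFNγ had 65.9, 68.1 and 73.0 CPM, also all below IFNγ, with a change of -0.67 (adjusted p = 0.188, edgeR). Against A-241 alone the change in A-241+IFNγ was -0.25 (95% confidence interval -0.74 to 0.25). Irf9 shares 123 exon bases (2.28%) with Rnf31 on the same strand, and a read there was counted for both. Rnf31, at means of 4.49 to 8.05 CPM, changed by 0.77 in IFNγ against DMSO (adjusted p = 0.298, edgeR) and by -0.20 in A-241+IFNγ against IFNγ.

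Irf7, an amplifier of type I interferon responses that is itself an interferon-induced gene, had overlapping levels in the 3 IFNγ-treated conditions. DMSO libraries had 12.6, 10.9 and 5.52 CPM and IFNγ libraries 26.0, 15.5 and 25.8 CPM. The groups did not overlap, and the Gm42418-rich libraries were the lowest of each, as for Irf1. The log2 fold change was 1.19 ± 0.26 (SE, adjusted p = 0.0183, edgeR), which DESeq2 called (adjusted p = 0.000429), as did edgeR without both of those libraries (1.135, adjusted p = 0.000918) or without IFNγ replicate 2 alone (1.38, adjusted p = 0.0025). These were 3 of 13 alternative fits, and without IFNγ replicate 1 the adjusted p was 0.102 (edgeR). A-241+IFNγ had 27.8, 22.6 and 19.1 CPM and A-485+IFNγ 27.1, 25.8 and 26.0 CPM, with changes against IFNγ of 0.03 (95% confidence interval -0.48 to 0.55) and 0.22 (-0.30 to 0.73). Without IFNγ the levels were 15.5, 16.0 and 14.5 CPM with A-241, all above DMSO (0.63 ± 0.26, adjusted p = 0.151, edgeR), and 11.8, 15.6 and 15.1 CPM with A-485 (0.51 ± 0.26, adjusted p = 0.448, edgeR). Irf7 shares 45 exon bases (1.19%) with Phrf1 on the opposite strand, and a read there was counted for both, as no strand option was set. Phrf1 had condition means of 35.8 to 47.9 CPM, above those of Irf7, and changed by 0.09 with IFNγ.

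Irf3, the factor that TBK1 activates by phosphorylation and that is made constitutively, was not called in any comparison. Its condition means lay between 5.69 CPM in IFNγ and 7.15 CPM in A-241, and all neighbours in that order overlapped. With IFNγ the log2 fold change was -0.06 (95% confidence interval -0.68 to 0.55), and in the presence of IFNγ it was 0.09 with A-241 and 0.00 with A-485. Its exon bases are shared to 2.56% with Bcl2l12 on the opposite strand, whose means were 1.31 to 2.55 CPM.

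Irf4 and Irf5, known from lymphocytes and from myeloid cells, were at or near the limit of detection and were not tested. Irf4 had 1 count in A-241 replicate 2, 1 in IFNγ replicate 2 and 0 in the other 16 libraries. Irf5 had 0 to 9 counts per library, with condition means of 0.543 CPM in DMSO to 1.33 CPM in A-241+IFNγ, and the libraries of all conditions overlapped. Of the Irf5 exon bases, 14.1% are shared with Tnpo3 on the opposite strand. Tnpo3 had condition means of 169 to 212 CPM, and because no strand option was set, some of the few Irf5 counts cannot be told apart from its reads.

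**Figure D3:**
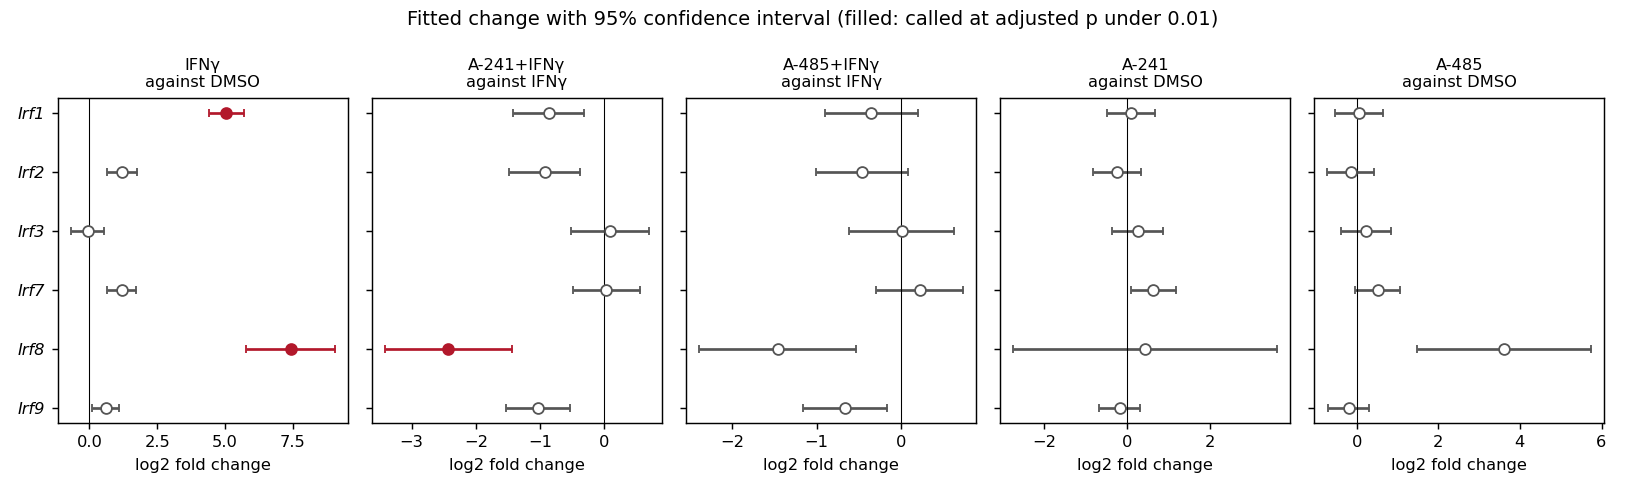
Fitted log2 fold change of the 6 Irf genes tested, with 95% confidence intervals, in 5 comparisons. Filled points had an adjusted p below 0.01. Irf1 and Irf8 were called with IFNγ, and Irf8 in A-241+IFNγ against IFNγ. Fitted changes of Irf8 against DMSO, which had 2 counts in all, depend on the prior count.

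In the absence of IFNγ no Irf gene was called with either inhibitor by edgeR, DESeq2 or limma-voom. The background was 4.35% of all genes called for A-241 and 0.66% for A-485. In each of these comparisons 1 of the 6 genes had an unadjusted p under 0.05 (edgeR), Irf7 with A-241 and Irf8 with A-485. Of all 11964 genes, 2782 had one with A-241 and 1472 with A-485. Over the 6 Irf genes tested the median log2 fold change was 0.17 with A-241 and 0.14 with A-485. Over all genes tested these medians were 0.014 and -0.004.

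A-241 at 250 nM and A-485 at 1000 nM were compared directly both without and with IFNγ, and their doses differ. No Irf gene was called in either comparison by edgeR, DESeq2 or limma-voom, beside 0.368% and 0.518% of all genes. Without IFNγ 1 gene, Irf8, had an unadjusted p under 0.05 (edgeR), and with IFNγ none did. Of all 11964 genes, 976 had one without IFNγ and 778 with it. In the presence of IFNγ 5 of 6 changes were negative (lower with A-241). They were -0.97 for Irf8 (95% confidence interval -1.96 to 0.03), -0.51 for Irf1 (-1.07 to 0.04), -0.46 for Irf2 (-1.01 to 0.09), -0.36 for Irf9 (-0.85 to 0.14) and -0.18 for Irf7 (-0.70 to 0.33). For Irf8, Irf1, Irf2 and Irf9 the libraries of the 2 conditions did not overlap. The share of all genes without overlap was not counted, so this is a description only. The intervals include 0, so a difference between the compounds at these doses was not shown, and intervals down to these limits do not show that they act alike.

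Whether the response to IFNγ itself differed with an inhibitor was tested by the interaction, the response with the inhibitor minus that without it. None of the 6 genes was called by edgeR for either inhibitor, and 0.0334% of all genes were called for A-241 and 0% for A-485. All 6 interactions were negative with both inhibitors, and both tests share the DMSO and IFNγ libraries. For A-241, Irf1 (-0.95 ± 0.38 SE) and Irf9 (-0.85 ± 0.33) had an unadjusted p under 0.05, with adjusted p of 1 for both (edgeR), and DESeq2 and limma-voom called 0 of the 6. For A-485, Irf8 had one (adjusted p = 0.218, edgeR), and DESeq2 called it (adjusted p = 0.00755) while limma-voom called none. That test takes in the 13, 1 and 17 counts with A-485 alone and the 2 counts in DMSO. Of all genes, 402 had an unadjusted p under 0.05 (edgeR) for the interaction with A-241 and 499 for that with A-485. For the interaction with A-485 limma-voom called 0 genes and DESeq2 called 8.

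Genes that act with the IRF proteins were taken from lists. Of 11 genes of the IFNγ receptor, JAK and STAT pathway, all tested, 2 rose with IFNγ and none fell, beside 1.3% of all genes called. Their median log2 fold change was 0.60, against -0.003 over all genes. Stat2, which pairs with IRF9 in ISGF3, rose by 2.50 ± 0.23 (SE, adjusted p = 2.45e-06, edgeR). Socs1, a feedback inhibitor of JAK kinases, had 2, 4 and 0 counts in DMSO and 511, 4 and 320 counts in IFNγ, or 62.7, 1.19 and 55.8 CPM (adjusted p = 0.00214, edgeR). The Gm42418-rich IFNγ library thus held almost none, while the other 2 were far above DMSO. Socs1 passed the filter through the IFNγ-treated libraries, where it was high. In A-241+IFNγ against IFNγ, 1 of the 11 genes, Stat2, fell (-1.05 ± 0.21, adjusted p = 0.00413, edgeR), beside 4.09% of all genes called. With A-485 Stat2 was not called (-0.64, adjusted p = 0.138, edgeR).

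Of 20 partners and coregulators of IRF proteins 17 were tested. Over all genes 1.3% were called with IFNγ and 4.09% in A-241+IFNγ against IFNγ. With IFNγ 4 rose, namely Batf2, a bZIP partner of IRF1 and IRF8, Trim21, a ubiquitin ligase that binds IRF proteins, Myd88 and Tmem173 (STING), adaptors upstream of IRF factors. Batf2 had 0 counts in all libraries without IFNγ and 174 counts over the IFNγ libraries. In A-241+IFNγ against IFNγ 5 fell, namely Batf2, Irf2bp2, Irf2bpl, Bcl6 and Tmem173. Batf2 was left with 4 counts over the A-241+IFNγ libraries and 36 over the A-485+IFNγ libraries. It passed the filter only through IFNγ-treated libraries and was highest in IFNγ alone, so its place among the genes that rose and fell depended on the levels compared. Tmem173 and Bcl6 were named after their values were seen.

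Irf2bp2, which encodes a corepressor that binds IRF2, fell with both compounds whether IFNγ was present or not, and was not called with IFNγ alone. Its level was 50.2 ± 5.2 CPM in DMSO, 7.77 ± 0.43 with A-241 and 22.4 ± 3.7 with A-485 (SD, n = 3). The log2 fold change was -2.68 ± 0.19 (SE) with A-241 (adjusted p = 1.73e-07, edgeR) and -1.16 ± 0.17 with A-485 (adjusted p = 0.00173, edgeR). Under IFNγ it was -2.43 and -1.27, both called, and IFNγ alone gave -0.09 (adjusted p = 0.968, edgeR). The A-241 level was below the A-485 level both without IFNγ (-1.53, adjusted p = 0.000299, edgeR) and with it (-1.15, adjusted p = 0.00274, edgeR), at the doses named. Its relative Irf2bpl fell with A-241 from 74.3 ± 28.7 to 16.5 ± 0.8 CPM (-2.173 ± 0.32, adjusted p = 0.000404, edgeR), whereas the change with A-485 was -0.16 (adjusted p = 0.843, edgeR). Beside these decreases, the epithelial markers Krt18 and Krt14 were called lower with A-241. Of the 7 epithelial or carcinoma markers tested, 6 had a negative change with A-241 and 1 a positive change. The summed level of that list, which includes Vim, was 1647 to 1974 CPM in DMSO, 1072 to 1106 CPM with A-241 and 1183 to 1293 CPM with A-485. The part of this summed level in these results was not tested.

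Of 30 genes known to be driven through IRF sites 25 were tested. With IFNγ 18 rose and none fell, with a median of 3.03. Some of the 25 passed the filter only through IFNγ-treated libraries, such as Cxcl11, with 0 counts in every library without IFNγ. In A-241+IFNγ against IFNγ 14 fell and none rose, with a median of -1.82. With A-485 3 fell, Gbp3, Cd274 and Igtp, with a median of -0.66, but DESeq2 called 7 and the fit without both Gm42418-rich libraries 9. Over all genes tested the medians in these 3 comparisons were -0.003, -0.02 and -0.03. The shares of all genes called there by edgeR, in either direction, were 1.3%, 4.09% and 0.552%. The T cell chemokine genes Cxcl9 and Cxcl10 went from 2 and 17 counts over the DMSO libraries to 2563 and 4274 over the IFNγ libraries. Cxcl9 stood at 141.4 ± 40.4 CPM with IFNγ, 2.13 ± 0.30 with A-241+IFNγ and 56.9 ± 1.6 with A-485+IFNγ (SD, n = 3). Ifit3, an antiviral effector, stood at 74.9 ± 17.7, 3.81 ± 0.66 and 35.6 ± 6.9 CPM in the same conditions. Cd274, which encodes the checkpoint ligand PD-L1, stood at 17.7 ± 4.4, 2.169 ± 0.11 and 4.28 ± 0.79 CPM. In A-241+IFNγ against A-485+IFNγ, 8 of the 25 genes fell and none rose, beside 0.518% of all genes called. Irf1 itself had means of 648.8 CPM with IFNγ, 355.7 with A-241+IFNγ and 508.0 with A-485+IFNγ. Its part in the changes of these genes was not tested.

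**Figure D4:**
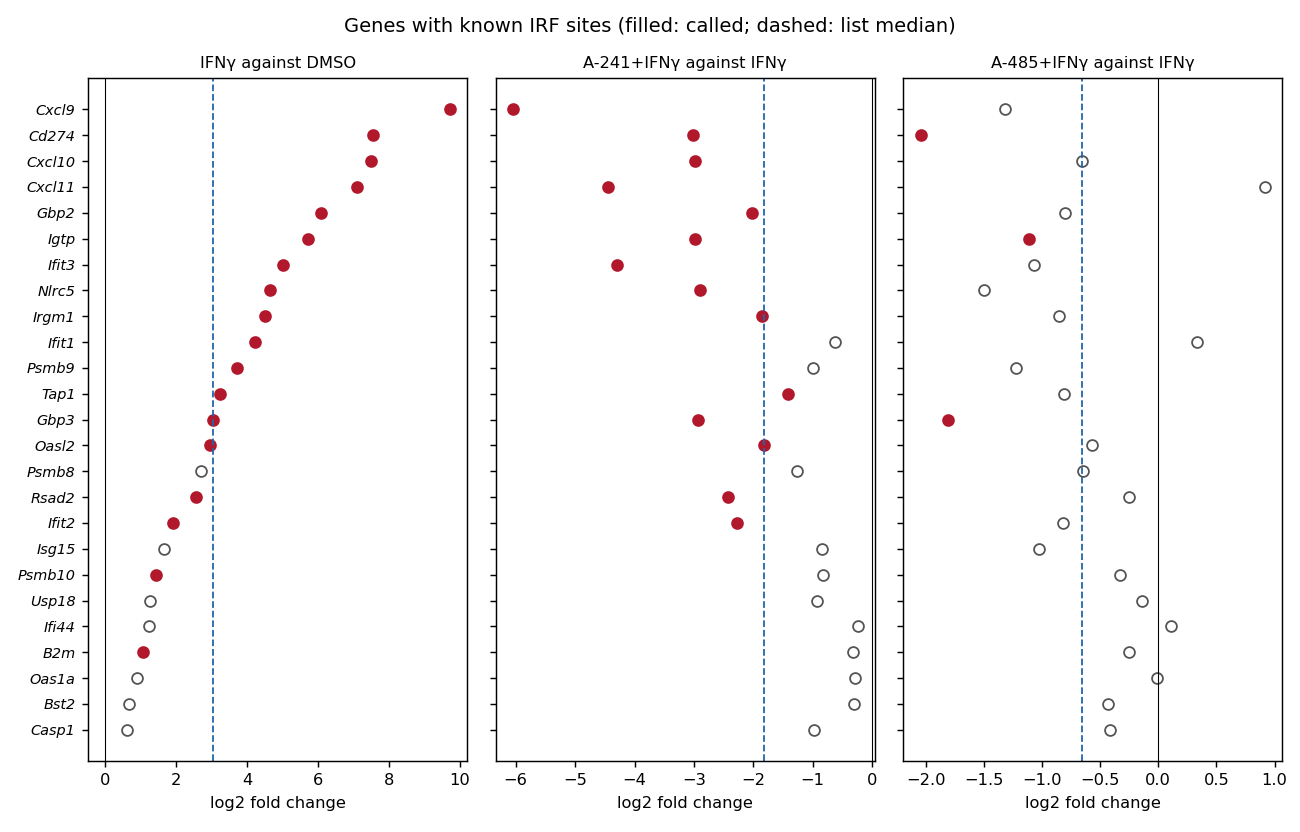
Fitted log2 fold change of the 25 tested genes with known IRF sites in 3 comparisons, ordered by the change with IFNγ. Filled points were called and dashed lines mark the list medians of 3.03, -1.82 and -0.66. Genes with 0 to 3 counts in DMSO, such as Cxcl9, Cxcl11 and Cd274, have fitted changes that depend on the prior count.

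The 5 genes whose log2 CPM followed Irf1 most closely over the 18 libraries were Gm4841 (Pearson r = 0.986), F830016B08Rik (0.982), Parp14 (0.976), Gbp2 (0.971) and Cxcl10 (0.963). For Irf8 they were Rtp4 (0.943), Psmb9 (0.943), Gbp2 (0.941), Tap1 (0.938) and Iigp1 (0.936). Gbp2 was on both lists. Among the Irf genes themselves, r was 0.892 for Irf1 and Irf8, 0.818 for Irf1 and Irf7, and 0.750 for Irf2 and Irf9, but 0.212 for Irf1 and Irf9. These values are descriptions over libraries that share their treatments, depth and the 2 Gm42418-rich libraries.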

How the data were processed

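QuantSeq 3′ libraries of AT3 cells were analysed as deposited. The authors demultiplexed reads with bcl2fastq 2.17.1.14, checked them with FastQC 0.11.5, trimmed them with cutadapt 1.7, aligned them with HISAT2 2.1.0 to mm10 and ran featureCounts over exons. The deposited table holds raw, unnormalized counts for each gene, with a read on several genes counted for each and no strand option. The annotation release is not given in the sources used here.

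Identifiers were joined to GENCODE vM21 (42548 of 43629 matched, 97.5%). In R 4.3.3 genes were filtered with filterByExpr by condition, scaled by TMM and fitted with glmQLFit of edgeR 4.0.16 over all 18 libraries with a mean per condition. The 11 comparisons were tested with glmQLFTest, with Benjamini-Hochberg adjustment over all genes tested and calls at an adjusted p under 0.01. Log2 CPM used a prior count of 2. For a group with 1 to 3 counts in all, the ratio of summed counts is given with an exact binomial interval (95%), which covers counting error and not the spread between libraries. Replicates were compared by chi-square and none were duplicates (2.09 to 125 per degree of freedom). Motifs and figures were made in Python 3.11.15 with pandas 2.3.3 and matplotlib 3.10.9. The method was tested on simulated data.

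The alternatives were DESeq2 1.42.0, limma-voom (limma 3.58.1), DESeq2 size factors, no filter, a replicate block, only the groups compared, an adjusted p of 0.05, each library left out and both Gm42418-rich libraries left out. The list counts under DESeq2, limma-voom and without those libraries were added after seeing the data. All members of the family chosen are named, and from each list the 3 largest called changes with IFNγ and with A-241 under IFNγ may be named. Per member called in a comparison of 2 conditions, the 5 genes of highest Pearson r are named. 1 gene of the list of the receptor, JAK and STAT pathway is not reported here and was left out of its counts. The members and lists were chosen with earlier results of these data known.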

Additional observations from a re-analysis of the deposited data

How the results depend on the processing

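In A-241+IFNγ against IFNγ the number of Irf genes called was 1, and it ranged from 0 to 2 with 1 library left out. IFNγ against DMSO had 2 calls, and 4 by DESeq2, without both Gm42418-rich libraries and at an adjusted p of 0.05, but 1 with only the groups compared. A-241+IFNγ against IFNγ had 2 by DESeq2, 3 without both libraries and 3 at 0.05. A-485+IFNγ against IFNγ had 0, and 1 without both libraries. A-241+IFNγ against A-241 had 1, and 2 by DESeq2, without the filter, without both libraries, with only the groups compared and at 0.05. A-485+IFNγ against A-485 had 1, and 2 by DESeq2, without the filter and at 0.05, and 4 without both libraries and with only the groups compared. The interaction with A-485 had 0, and 1 by DESeq2. The cause of these differences was not tested. The other counts stayed within 1.5 times, and no call changed sign. Of 927 fold changes of single genes under an alternative, 846 kept their direction and side of the threshold, 26 became called, 5 lost the call, and 50 that were not called changed sign.

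Replicate numbers did not pair the libraries. Deviations of same-numbered libraries correlated between -0.804 and 0.477 (median -0.018), and 5 of 18 libraries were closest to their own number. With the replicate number as a block the Irf calls were 2 for IFNγ against DMSO, 1 for A-241+IFNγ against IFNγ, 1 for each inhibitor with IFNγ against that inhibitor alone, and 0 elsewhere. Over all genes it gave 29 calls for A-485+IFNγ against IFNγ in place of 66, 51 for A-485 against DMSO in place of 79, 29 for A-241 against A-485 in place of 44, and 2 for the interaction with A-241 in place of 4. At these depths Irf4 and Irf5 were too low to compare.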

Other observations

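Without IFNγ, A-485 raised 1 of the 25 tested genes with known IRF sites, Ifit1 (log2 fold change 1.26, adjusted p = 0.00975, edgeR). Ifit1 was named after its values were seen, and A-241 raised none. The shares of all genes called, in either direction, were 0.66% with A-485 and 4.35% with A-241. The interaction with A-241 was called for Gbp3 (-2.58, adjusted p = 0.00284, edgeR) and Igtp (-3.38, adjusted p = 3.22e-05, edgeR), beside 0.0334% of all genes. Both encode interferon-inducible GTPases and were also named after their values were seen. Of the listed IRF partners, Spi1, Batf and Ikbke were not tested, with at most 5, 1 and 6 counts in any library.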
